A study of Mus musculus with 8 samples.

Results

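Genes of superoxide and peroxide defence and of selenium binding were examined in liver RNA. They were 10 of the 22564 genes of the deposited expression table, taken by symbol: Sod1, Sod2, Gpx1, Gpx3, Gpx4, Prdx1, Prdx3, Prdx6, Selenbp1 and Selenbp2. All 10 were present once each and all 10 passed the filter on low values. The libraries came from 4 untreated db/db livers and 4 untreated livers of control C57BL/6 mice. The study compared this genetic model of fatty liver with controls as part of its work on RNA methylation. The db/db strain carries a natural defect of the leptin receptor gene in every tissue and becomes obese. The labels give the strain as db/db only and do not name the genetic background that carries the defect. Per the methods, db/db mice were bought from another supplier than the C57BL/6J mice and at a younger age, their age at collection is not given, and no source ties the control libraries to those C57BL/6J animals. The leptin receptor defect, genetic background, supplier and age therefore cannot be told apart. The study speaks of mouse samples, but the labels do not say that each library came from a separate mouse, and the p-values measure the spread between libraries, which may in part be technical.

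Superoxide, a by-product of mitochondrial respiration and of several oxidases, is converted to hydrogen peroxide by superoxide dismutases. Hydrogen peroxide and lipid peroxides are then reduced by glutathione peroxidases and by peroxiredoxins, with catalase acting on hydrogen peroxide in peroxisomes. Glutathione peroxidases such as Gpx1 carry selenium as selenocysteine in the active site, whereas the selenium-binding proteins hold selenium without encoding that residue. The liver expresses many of these proteins and also supplies selenium to other organs through secreted selenoprotein P.

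The mitochondrial peroxiredoxin Prdx3, the glutathione-using peroxiredoxin Prdx6 and Selenbp1 were higher in db/db livers, by 1.41 to 1.60 times as a ratio of group means. Selenbp2 fell to 4.06% of the control mean in db/db livers. No difference passed the test for either superoxide dismutase or for any of the 3 glutathione peroxidases. Of the 10 genes, 3 were higher and 1 was lower in db/db livers at a limma adjusted p under 0.05, and 6 did not pass. Over all 9863 tested genes, 16.0% were higher and 11.6% lower in db/db livers, 27.7% in either direction. The balance of these calls depends on scaling, with 1354 higher and 1351 lower under median-ratio scaling and 1404 and 1384 under quantile normalization, against 1582 and 1147 on the deposited values.

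Levels are FPKM, fragments scaled by transcript length and by the mapped fragments of the library, and are given as mean ± SD over 4 libraries a group. Differences are db/db minus control on the log2(FPKM + 1) scale with the standard error, and each was tested by limma over all tested genes. The sum of FPKM was 555661 to 602391 in db/db libraries and 641355 to 676884 in control libraries. Absolute depth is unknown because FPKM hold no read totals, and relative depth read from the weakest genes was 0.908 to 1.1 in db/db and 0.815 to 1.0 in control libraries, against control replicate 1. Lepr, the gene altered in db/db mice, was at 0.53 to 0.72 FPKM in db/db and 0.461 to 0.953 FPKM in control libraries, and a value for the whole gene does not check the db allele. Among libraries of a group, db/db replicate 1 stood apart on the second principal component (10.33% of the variance), at 27.6 against -14.8 to -4.97 for the other db/db libraries. It was the lowest of the 4 db/db libraries for 6 of the 10 genes and the highest for 2. Where a call or a value for the 10 genes turns on it, the value without it is given too. Defining hepatocyte markers were present. Albumin (Alb) was listed at 0 in all 8 libraries, which in a table without counts can be a failed estimate.

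The order of levels was similar in both groups apart from Selenbp2. In db/db livers the means ran Sod1, Gpx1, Prdx1, Gpx4, Prdx6, Selenbp1, Prdx3, Sod2, Selenbp2 and Gpx3, and the ranges overlapped between the neighbours Sod1 and Gpx1, Gpx4 and Prdx6, and Sod2 and Selenbp2. In control livers Selenbp2 came next after Sod1 and Gpx1, with a range that overlapped that of Prdx1. By mean FPKM among the 9863 tested genes, Selenbp2 was gene 1631 in db/db livers and gene 78 in control livers. Together the 10 genes held 1.00% to 1.12% of the summed FPKM in db/db libraries and 0.931% to 1.04% in control libraries.

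**Figure D1:**
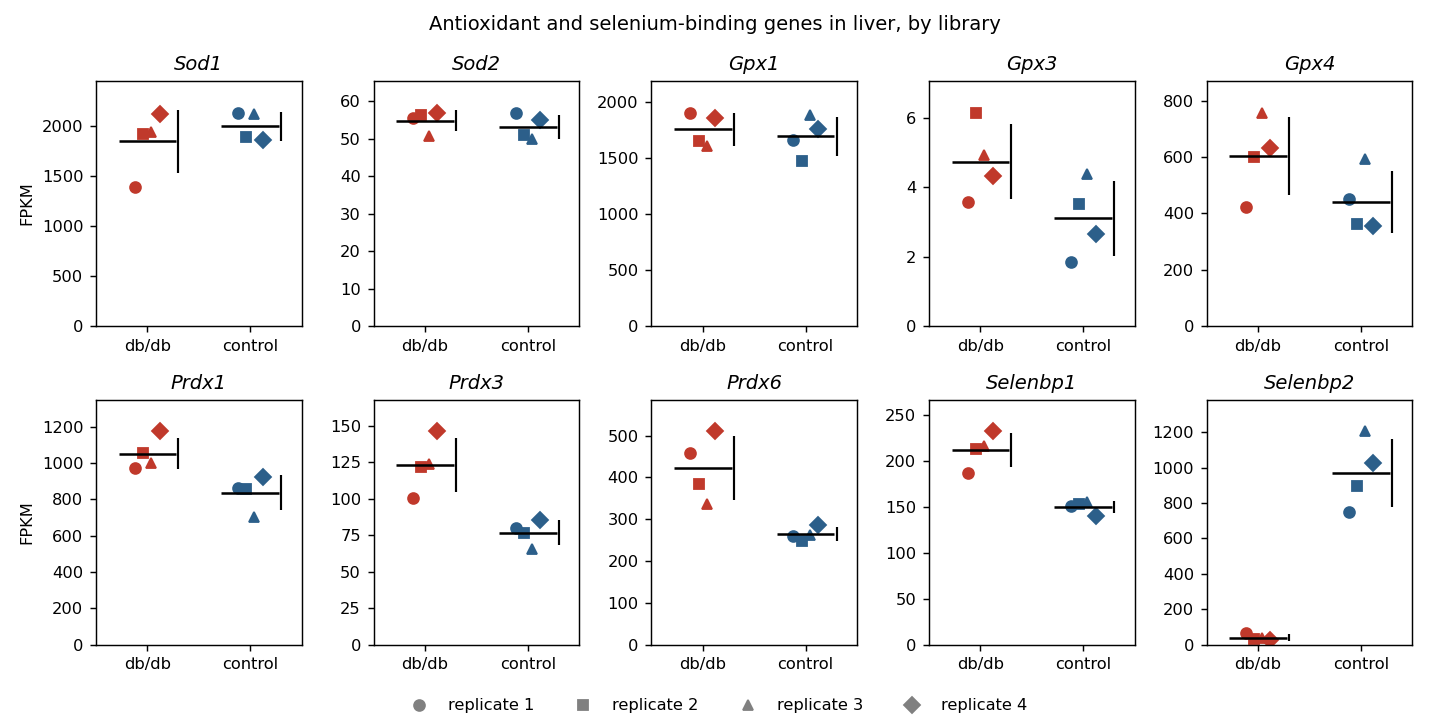
FPKM of each of the 10 genes in the 4 db/db libraries (red, left) and the 4 control libraries (blue, right); horizontal lines are group means, vertical bars are ± SD, and marker shapes give the replicate, which does not pair the groups. Groups are apart for Prdx1, Prdx3, Prdx6, Selenbp1 and Selenbp2, and Selenbp2 lies at 24.3 to 67.2 FPKM in db/db against 749 to 1204 FPKM in control libraries.

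Sod1 encodes the copper and zinc superoxide dismutase of the cytosol (mm10 chr16:90220754-90226329, plus strand). It had 1393, 1925, 1946 and 2127 FPKM in db/db replicates 1 to 4, against 2133, 1890, 2119 and 1863 FPKM in control replicates 1 to 4. The groups overlapped, and db/db replicate 1 was below all other libraries. Means were 1848 ± 316 FPKM in db/db and 2001 ± 145 FPKM in control livers, a difference of -0.13 ± 0.14 (SE; 95% confidence interval -0.45 to 0.19; limma adjusted p = 0.536). Without db/db replicate 1 it was -7.5e-05, so the lower mean rests on that library. A processed pseudogene, Gm8566, shares 34.9% of the 31-base words of Sod1 transcripts, so the level may include reads of the copy.

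Sod2 encodes the manganese superoxide dismutase of mitochondria (chr17:13006846-13040063, plus strand). Its FPKM were 55.7, 56.3, 50.6 and 56.9 in db/db replicates 1 to 4, against 56.8, 51.0, 49.9 and 55.0 in the control replicates. The libraries differed little, with coefficients of variation of 5.23% in db/db and 6.17% in control livers and ranges that almost coincided. The difference was 0.05 ± 0.09 (95% confidence interval -0.16 to 0.25; limma adjusted p = 0.75), so changes beyond about 0.25 on this scale lay outside the interval.

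The ratio of cytosolic to mitochondrial dismutase within a library does not depend on how libraries are scaled. Sod1 was 25.0 to 38.4 times Sod2 in db/db and 33.9 to 42.5 times in control libraries, with overlapping ranges. The difference of the mean log2 ratios was -0.18 (exact permutation test over libraries, 2-sided p = 0.429, and 0.429 after Benjamini-Hochberg adjustment over 4 ratios). Without db/db replicate 1 the difference was -0.04. With 4 libraries against 4 the smallest p this test can give is 0.0286.

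The glutathione peroxidases among the 10 genes are selenoproteins. Their messenger RNA reads a TGA codon as selenocysteine, and the coding bases around that codon are shown because they mark these 3 genes apart from the other 7, in which no in-frame TGA precedes the stop codon of the transcript used. The sequences are from GENCODE M21 transcripts (GRCm38), 5′ to 3′ on the coding strand, with the in-frame TGA in capitals at codon 47 of Gpx1 (chr9, coding bases 109 to 171), codon 73 of Gpx3 (chr11, coding bases 187 to 249) and codon 129 of the Gpx4 transcript used (chr10, coding bases 355 to 417).
Gpx1: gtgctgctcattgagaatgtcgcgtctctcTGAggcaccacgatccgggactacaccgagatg
Gpx3: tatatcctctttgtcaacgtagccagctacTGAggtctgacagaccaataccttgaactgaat
Gpx4: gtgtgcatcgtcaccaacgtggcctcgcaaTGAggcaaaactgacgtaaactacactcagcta
In each the selenocysteine codon is followed by GG.

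Gpx1 encodes the main cytosolic glutathione peroxidase, which reduces hydrogen peroxide (chr9:108338903-108340343, plus strand). It had 1901, 1647, 1607 and 1860 FPKM in db/db replicates 1 to 4, against 1660, 1472, 1879 and 1758 FPKM in the control replicates. The libraries of both groups were interleaved. The difference was 0.05 ± 0.12 (95% confidence interval -0.21 to 0.32; limma adjusted p = 0.769), and all 31-base words of its transcripts were unique to the gene.

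Gpx3 encodes the secreted glutathione peroxidase of plasma, made mainly in the kidney (chr11:54902453-54910377, plus strand). It was the weakest of the 10 genes in both groups, with 3.58, 6.15, 4.92 and 4.33 FPKM across the db/db replicates and 1.86, 3.51, 4.39 and 2.66 FPKM across the control replicates. The groups overlapped through db/db replicates 1 and 4 and control replicate 3. The difference was 0.51 ± 0.21 (95% confidence interval 0.05 to 0.96; limma adjusted p = 0.0929). Without control replicate 3 it was 0.65 and passed the test (limma adjusted p = 0.041).

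Gpx4 encodes the peroxidase that reduces lipid hydroperoxides within membranes (chr10:80047166-80056439, plus strand). Its level was 421, 601, 757 and 632 FPKM in db/db replicates 1 to 4, against 453, 364, 593 and 354 FPKM in the control replicates. The lowest db/db library, replicate 1, and the highest control library, replicate 3, made the groups overlap. The difference was 0.45 ± 0.20 (95% confidence interval -0.00115 to 0.90; limma adjusted p = 0.127). It was 0.61 without db/db replicate 1 and 0.60 without control replicate 3, each past the threshold (limma adjusted p = 0.0319 and 0.0478). A transcribed processed pseudogene, Gpx4-ps2, shares 55.2% of the 31-base words of Gpx4, and the locus the table gives for Gpx4 spans 672333 bases, 72.5 times the annotated gene, so the level of Gpx4 is uncertain.

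Gpx1 was 2.12 to 4.51 times Gpx4 in db/db and 3.17 to 4.97 times in control libraries. The mean log2 ratio differed by -0.40 (exact permutation test, 2-sided p = 0.2, adjusted over 4 ratios p = 0.267). Leaving out db/db replicate 1 gave -0.60, and leaving out db/db replicate 3 gave -0.24.

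Peroxiredoxins reduce peroxides with a reactive cysteine and are among the most abundant antioxidant proteins of the cell. All 3 of those examined here were above the control range in every db/db library, and the difference passed the test for Prdx3 and Prdx6. With Selenbp1 they made 4 genes that did not overlap and were higher in db/db, beside 1 that did not overlap and was lower (Selenbp2) and 5 that overlapped. Among all tested genes 17.3% did not overlap with db/db higher, 12.1% with db/db lower, and 29.5% in either direction.

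Prdx1 encodes the cytosolic enzyme that is regenerated by thioredoxin (chr4:116685544-116700822, plus strand). It had 976, 1059, 1004 and 1175 FPKM in db/db replicates 1 to 4, against 864, 856, 701 and 926 FPKM in the control replicates. The lowest db/db library was only just above the highest control library. Means were 1053.5 ± 88.0 FPKM in db/db and 837 ± 95.8 FPKM in control livers, and the difference of 0.34 ± 0.12 (95% confidence interval 0.07 to 0.60) did not pass (limma adjusted p = 0.0583). Without db/db replicate 1 it was 0.37 and passed (limma adjusted p = 0.046). The processed pseudogenes Gm21399 and Gm7204 share 11.1% and 9.5% of its 31-base words.

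Prdx3 encodes the peroxiredoxin of the mitochondrial matrix (chr19:60864051-60874556, minus strand). Its FPKM were 100.2, 121.7, 124.1 and 146.1 in db/db replicates 1 to 4, against 80.1, 76.1, 65.4 and 85.3 in the control replicates. Every db/db library was above every control library. Prdx3 averaged 123 ± 18.7 FPKM in db/db and 76.7 ± 8.43 FPKM in control livers, 1.60 times higher, a difference of 0.67 ± 0.13 (95% confidence interval 0.38 to 0.96; limma adjusted p = 0.00379). No 31-base word of its transcript was shared with another annotated gene.

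Prdx6 encodes the peroxiredoxin that uses glutathione, acts on phospholipid hydroperoxides and also has a phospholipase activity (chr1:161240112-161251219, minus strand). It had 458, 383, 336 and 510 FPKM in db/db replicates 1 to 4, against 259, 247, 263 and 287 FPKM in the control replicates. The db/db libraries were all higher and also more spread, with a coefficient of variation of 18.3% against 6.33% in control livers. Means were 422 ± 77.1 FPKM in db/db and 264 ± 16.7 FPKM in control livers, a ratio of 1.60 and a difference of 0.66 ± 0.13 (95% confidence interval 0.36 to 0.96; limma adjusted p = 0.00482).

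Within a library, Prdx1 was 8.05 to 9.74 times Prdx3 in db/db and 10.7 to 11.2 times in control libraries, so the ranges did not overlap. The mean log2 ratio differed by -0.34. The exact permutation test gave its smallest p, 0.0286, which became 0.0572 after adjustment over the 4 ratios. With this floor an adjusted value under 0.05 needs at least 3 of the 4 ratios at the smallest p. The ratios of Sod1 to Sod2 and of Gpx1 to Gpx4 were above it (p = 0.429 and 0.2, exact permutation test). That the ratio of Prdx1 to Prdx3 did not pass thus rests on this floor and on the set of ratios adjusted together.

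**Figure D2:**
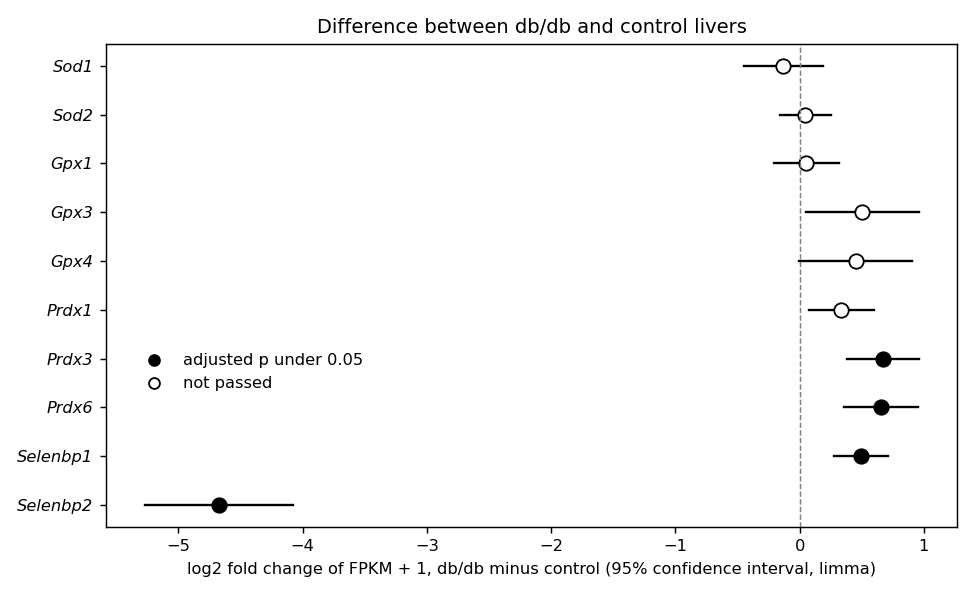
Difference between db/db and control livers for each of the 10 genes on the log2(FPKM + 1) scale, with the 95% confidence interval from limma; filled points have an adjusted p under 0.05. Prdx3, Prdx6 and Selenbp1 lie at 0.49 to 0.67 and Selenbp2 at -4.67, while the intervals of Sod1, Sod2, Gpx1 and Gpx4 include 0.

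Transcript levels of the selenium-binding protein genes differed in opposite directions between the groups. Selenbp1 and Selenbp2 are neighbours on the plus strand of mouse chromosome 3, with Selenbp2 at chr3:94693556-94704413, Selenbp1 at chr3:94933056-94944758 and 228642 bases between them. The human counterpart of Selenbp1 is known as a methanethiol oxidase, an enzyme that forms hydrogen peroxide, and mouse Selenbp2 was first described as an acetaminophen-binding protein of liver. Their coding sequences have the same length, 1419 bases each, and are identical at 1401 of them (98.73%), with 18 mismatches, no gap and a longest identical run of 193 bases. A stretch of 90 coding bases is shown to let the near identity be seen, since it decides how well reads can be assigned to one gene or the other. It covers coding bases 360 to 449 of both genes (GENCODE M21 transcripts, GRCm38, chromosome 3), and the capitals mark the 4 bases that differ. It was picked as a stretch of this length with the most differences.
Selenbp2: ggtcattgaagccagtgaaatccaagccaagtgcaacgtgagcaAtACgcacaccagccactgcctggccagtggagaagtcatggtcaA
Selenbp1: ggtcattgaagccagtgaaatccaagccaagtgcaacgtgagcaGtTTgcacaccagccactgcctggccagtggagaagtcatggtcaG
Of the 31-base words of their transcripts, 35.92% were unique to Selenbp2 and 32.76% to Selenbp1, and the rest were shared by the pair. The level of each is therefore uncertain, because the authors' counting could split shared reads between them. These words are shorter than the paired-end reads in the study's methods, so the percentages are not shares of reads. The locus that the table gives for Selenbp1 spans 813116 bases, 69.5 times the annotated gene, whereas that of Selenbp2 matches the gene.

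Selenbp2 had 67.2, 30.0, 35.6 and 24.3 FPKM in db/db replicates 1 to 4, against 749, 894, 1204 and 1025 FPKM in the control replicates. The lowest control library was more than 10 times the highest db/db library, which was again replicate 1. Means were 39.3 ± 19.1 FPKM in db/db and 968 ± 193 FPKM in control livers, 24.6 times higher in control. The difference was -4.67 ± 0.27 (95% confidence interval -5.27 to -4.08; limma adjusted p = 1.25e-06), the 11th largest fall among the 9863 tested genes. A supplementary table of the study lists Selenbp2 as lower in db/db mice and in mice fed a high-fructose diet. The result here is therefore not independent evidence of its direction.

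The FPKM of Selenbp1 were 186, 213, 216 and 232 in db/db replicates 1 to 4, against 150.8, 153.6, 155.3 and 139.8 in the control replicates. Both groups were tight and did not overlap. Selenbp1 averaged 212 ± 18.9 FPKM in db/db and 149.9 ± 6.98 FPKM in control livers, 1.41 times higher, a difference of 0.49 ± 0.10 (95% confidence interval 0.28 to 0.71; limma adjusted p = 0.00421).

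A sum over the pair is less sensitive to how shared reads were split between them, although FPKM divide by the length of each gene and the split may still move it. Selenbp1 and Selenbp2 together had 254, 243, 252 and 256 FPKM in db/db replicates 1 to 4, against 900.3, 1048, 1359 and 1164 FPKM in the control replicates. The sum averaged 251 ± 5.78 FPKM in db/db and 1118 ± 194 FPKM in control livers, 4.45 times higher in control, so the summed level was lower in every db/db library. Selenbp2 held 15.6% ± 7.49 of the sum in db/db and 86.3% ± 2.47 in control livers. These are descriptions of the pair without a test.

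Selenbp2 was 0.105 to 0.360 times Selenbp1 in db/db and 4.97 to 7.75 times Selenbp1 in control libraries. The more abundant gene of the pair was thus Selenbp1 in every db/db library and Selenbp2 in every control library. The mean log2 ratio differed by -5.21, at the smallest p of the exact permutation test (0.0286). This became 0.0572 after adjustment over the 4 ratios, with the same limit from the floor and the set of ratios.

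**Figure D3:**
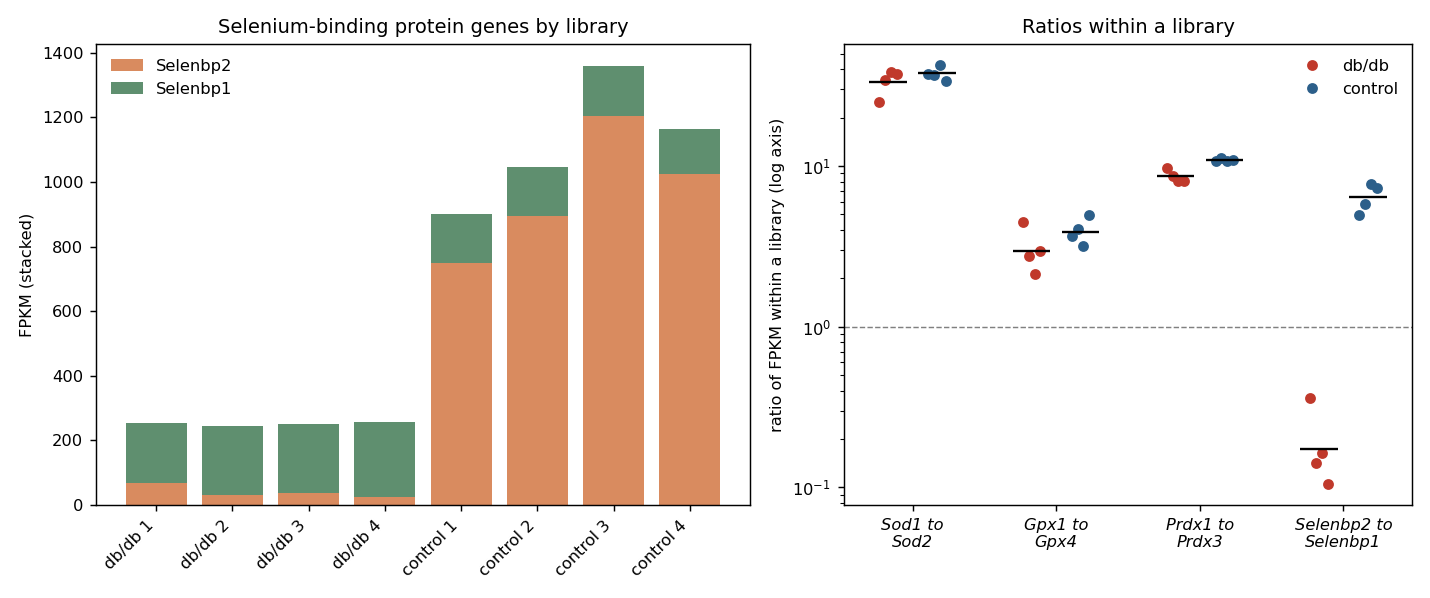
Left, stacked FPKM of Selenbp2 and Selenbp1 in each library, with db/db libraries before control libraries. Right, ratios of gene pairs within a library on a log axis, with lines at the mean of the log values. The summed pair lies at 243 to 256 FPKM in db/db and 900.3 to 1359 FPKM in control libraries, and the ratio of Selenbp2 to Selenbp1 is below 1 in all db/db and above 1 in all control libraries.

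The promoters of the pair are shown because genes with closely similar sequence before the start differed in opposite directions. The 250 bases before the RefSeq start (GRCm38.p6, plus strand) lie at chr3:94693323-94693572 for Selenbp2 and at chr3:94932833-94933082 for Selenbp1. Both windows end past the GENCODE gene starts given above, so their last bases lie within the annotated genes. The windows aligned with 223 of 262 columns identical (85.1%), 15 mismatches and 24 gap columns. Capitals mark bases that differ or face a gap.
Selenbp2: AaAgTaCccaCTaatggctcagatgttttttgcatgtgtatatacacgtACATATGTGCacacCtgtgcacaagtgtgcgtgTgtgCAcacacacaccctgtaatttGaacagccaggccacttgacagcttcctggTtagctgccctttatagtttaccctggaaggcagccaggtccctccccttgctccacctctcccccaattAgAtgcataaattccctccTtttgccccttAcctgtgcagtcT
Selenbp1: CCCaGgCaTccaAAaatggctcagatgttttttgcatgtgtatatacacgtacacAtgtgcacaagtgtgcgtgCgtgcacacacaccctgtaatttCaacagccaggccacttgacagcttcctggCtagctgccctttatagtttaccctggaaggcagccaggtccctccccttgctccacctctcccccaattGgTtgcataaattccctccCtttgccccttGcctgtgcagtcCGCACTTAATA
Motifs were searched on both strands in the same window of the 9 genes with a promoter entry. These had 12 entries, since Gpx4 had several. Prdx6 had no entry and was not searched. Windows of other genes also overlap their GENCODE genes. Those of Gpx3 and Sod2, and all of Gpx4 except its first, lie wholly within them. The antioxidant response element TGACNNNGC was found before Prdx1, 133 bases from the start, and before Sod1, 56 bases from the start, and it occurs in 10.2% of all 32851 promoters of this length. The STAT5 palindrome TTCNNNGAA was found before Sod2 only, 185 bases from the start, and occurs in 7.02% of all promoters. Neither was found in the windows of Selenbp2 and Selenbp1, which says only that these letters are not there.

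For the 4 genes that passed the test, the tested genes with the most similar pattern were sought by Pearson correlation of log2(FPKM + 1) over the 8 libraries. The libraries form 2 groups, so a gene that differs between them correlates with many others, and the values are descriptions. Nearest to Selenbp2 were Aox3 (r = 0.9947), Cadm4 (0.9946) and Gne (0.9935). Nearest to Selenbp1 were Mocs2 (0.9905), Tmem98 (0.9866) and Agpat9 (0.9862). Prdx3 was followed most closely by Cul4a (0.9862), Acsl5 (0.9848) and Nt5e (0.9845), and Prdx6 by Ilvbl (0.9875), Atp5a1 (0.9865) and Fbp1 (0.9862). Aox3, an aldehyde oxidase of mouse liver, had a fall of the size of that of Selenbp2, with 3.49 ± 2.76 FPKM in db/db and 99.9 ± 10.6 FPKM in control livers.

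Selenbp2 is known to be more abundant in the liver of male than of female mice. A list of male-biased liver genes that leaves Selenbp2 out had 19 tested genes. Of these, 14 were lower in db/db livers, 1 was higher and 4 did not pass, with a median difference of -2.98. The higher one was Cyp4a12a, at 384 ± 81.4 FPKM in db/db and 138 ± 24.3 FPKM in control livers (limma adjusted p = 0.000169). Without db/db replicate 1 the number lower was 16. Over all tested genes 11.6% were lower and 16.0% higher in db/db livers. Of 13 female-biased liver genes that passed the filter, 6 did so only through db/db libraries, so no count is given for that list. The study picked several male-biased genes on these samples too. The labels do not give the sex of the sequenced mice. The methods call the C57BL/6J mice male and give no sex for the db/db mice, and the part of sex or of hormones in the fall of Selenbp2 was not tested.

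Whole liver RNA was sequenced, so fewer cells of a type and less RNA per cell cannot be told apart. Summed FPKM of the hepatocyte markers were 15519 to 17501 in db/db and 33455 to 39200 in control libraries, with 3 of 11 tested markers lower (Apoa1, Ttr and Serpina1a) and none higher. Apoa1 made most of the gap, at 982 ± 274 FPKM in db/db and 15006 ± 2440 FPKM in control livers, whereas Apob had 998 ± 59.9 FPKM in db/db and 999 ± 51.7 FPKM in control livers. Sinusoidal endothelial markers summed to 85.2 to 97.95 FPKM in db/db and 112 to 138 FPKM in control libraries, with 3 of 9 lower. Kupffer cell markers summed to 105 to 149 FPKM in db/db and 130 to 211 FPKM in control libraries, with 2 of 9 lower, and stellate markers to 111 to 141 FPKM in db/db and 112 to 130 FPKM in control libraries, with 1 of 6 lower. Erythroid markers, which matter here because red cells are rich in several peroxiredoxins, summed to 305 to 385 FPKM in db/db and 303 to 894 FPKM in control libraries, and none of 5 tested markers differed past the threshold. Adipocyte markers summed to 1820 to 2633 FPKM in db/db and 1833 to 2395 FPKM in control libraries, with 1 of 2 tested markers higher. That was Retn, with 5.23 ± 3.01 FPKM in db/db and 0.108 ± 0.141 FPKM in control livers. Car3 had 2344 ± 375 FPKM in db/db and 2114 ± 321 FPKM in control livers and did not pass (limma adjusted p = 0.524). Lep was listed at 0 in all libraries. Plin1, Adipoq and Cfd were too weak to test, and their means were not higher in db/db livers. The part of these cell types in the differences of Prdx3, Prdx6, Selenbp1 and Selenbp2 was not tested.

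Other genes of redox and selenium biology were counted from 9 lists, which hold the remaining defence genes and also the oxidases that make superoxide and peroxide. The 98 listed genes found in the table gave 76 tested ones, of which 22 (28.9%) were higher in db/db livers, 8 (10.5%) were lower and 46 did not pass, with a median difference of 0.12. In the table as a whole the tested genes were higher in 16.0%, lower in 11.6% and had a median of 0.04.

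Among the other peroxiredoxins, Prdx4, which acts in the endoplasmic reticulum, fell. It averaged 64.8 ± 4.15 FPKM in db/db and 105.6 ± 10.1 FPKM in control livers, a difference of -0.69 ± 0.10 (limma adjusted p = 0.00071). Prdx2 of the cytosol had 128 ± 15.1 FPKM in db/db and 154 ± 12.4 FPKM in control livers, and Prdx5 had 330 ± 8.95 FPKM in db/db and 365 ± 50.2 FPKM in control livers, and neither passed (limma adjusted p = 0.107 and 0.399). Across the 6 peroxiredoxin genes, Prdx3 and Prdx6 thus passed as higher in db/db and Prdx4 as lower.

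Catalase (Cat), the peroxisomal enzyme that splits hydrogen peroxide, averaged 1241 ± 116 FPKM in db/db and 958 ± 125 FPKM in control livers, a difference of 0.38 ± 0.13 (limma adjusted p = 0.0474). Ccs, the chaperone that loads copper into Sod1, averaged 114 ± 6.35 FPKM in db/db and 142 ± 14.9 FPKM in control livers, a difference of -0.31 ± 0.10 (limma adjusted p = 0.0487). Both calls sit at the threshold. Cat passed in 5 of 15 alternative settings (limma adjusted p up to 0.12 over all settings). It failed with no filter, with median-ratio scaling, with quantile normalization and with no trend. Leaving out db/db replicate 1, 2 or 3 or control replicate 1, 3 or 4 also made it fail. Ccs passed in 7 of 15 (limma adjusted p up to 0.141). It failed with no trend and when db/db replicate 1, 2, 3 or 4 or control replicate 1, 3 or 4 was left out. Secreted Sod3 had 6.37 ± 1.29 FPKM in db/db and 4.80 ± 0.352 FPKM in control livers and did not pass (limma adjusted p = 0.106), but did without db/db replicate 1.

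Of 5 other glutathione peroxidase genes, 2 were strong enough to test. Gpx8 of the endoplasmic reticulum was lower, at 0.865 ± 0.154 FPKM in db/db and 1.81 ± 0.60 FPKM in control livers (limma adjusted p = 0.0191), a call that did not pass without db/db replicate 4 (0.0514). Gpx7, its closest relative, had 0.986 ± 0.211 FPKM in db/db and 1.53 ± 0.568 FPKM in control livers and did not pass (limma adjusted p = 0.168).

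The thioredoxin and glutaredoxin system, which keeps peroxiredoxins and other thiols reduced, had 4 of 14 tested genes higher, none lower and 10 that did not pass, with a median of 0.28. Srxn1, the sulfiredoxin that repairs over-oxidised peroxiredoxins, differed most among them, at 19.6 ± 3.41 FPKM in db/db and 8.42 ± 0.51 FPKM in control livers, 2.33 times higher (difference 1.12 ± 0.13; limma adjusted p = 0.000177). Txndc17, a thioredoxin-related protein, had 121 ± 16.2 FPKM in db/db and 71.0 ± 2.45 FPKM in control livers (limma adjusted p = 0.000704). Glutaredoxin (Glrx) was also higher (difference 0.56; limma adjusted p = 0.00307). Glrx3 was higher by 0.40 (limma adjusted p = 0.0217) but did not pass without db/db replicate 2 or 4 or control replicate 2 (adjusted p up to 0.0661).

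In the synthesis and recycling of glutathione, 2 of 8 tested genes were higher and 6 did not pass, with a median of 0.12. Gclc, the catalytic subunit of the rate-limiting enzyme of glutathione synthesis, had 70.6 ± 10.1 FPKM in db/db and 41.7 ± 10.5 FPKM in control livers (difference 0.77 ± 0.17; limma adjusted p = 0.0073). Gsr, the reductase that regenerates glutathione, had 24.8 ± 1.53 FPKM in db/db and 17.6 ± 0.685 FPKM in control livers (difference 0.47 ± 0.09; limma adjusted p = 0.00418). Gss, which completes glutathione, had 35.2 ± 1.16 FPKM in db/db and 40.6 ± 3.37 FPKM in control livers and did not pass (limma adjusted p = 0.145).

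Of 15 tested selenoproteins outside the glutathione peroxidases, 4 were higher, 1 was lower and 10 did not pass, with a median of 0.22. Dio1, the deiodinase that activates thyroid hormone, fell to 20.1 ± 6.53 FPKM in db/db livers, against 71.5 ± 21.6 FPKM in control livers (difference -1.81 ± 0.27; limma adjusted p = 0.000704). Those higher were Selenoi, an enzyme of phospholipid synthesis, Selenof of the endoplasmic reticulum, Selenoo of mitochondria and Selenot of the endoplasmic reticulum, by 0.35 to 0.52. In the table they stand under the older symbols Ept1, Sep15, Selo and Selt. The last of these fell outside the rule for named genes and was added after its value was seen. Selenoi passed in all 15 alternative settings, but the count of 4 fell to 2 without db/db replicate 1 or 2 or control replicate 2 or 4 and to 1 without db/db replicate 4, while Selenom joined Dio1 as lower without control replicate 2. Selenop, the secreted carrier of selenium (Sepp1 in the table), was the most abundant of the list, at 3686 ± 364 FPKM in db/db and 3148 ± 481 FPKM in control livers, and did not pass (limma adjusted p = 0.241), but did with quantile normalization (0.00617).

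Selenocysteine synthesis and insertion had 2 of 9 tested genes higher and 7 that did not pass, with a median of 0.19. Scly, the lyase that releases selenium from selenocysteine for reuse, had 36.8 ± 3.10 FPKM in db/db and 22.6 ± 2.84 FPKM in control livers (difference 0.68 ± 0.12; limma adjusted p = 0.00159). Secisbp2l was higher by 0.54 (limma adjusted p = 0.022), a call that did not pass without db/db replicate 2 or 3 or control replicate 1 or 3 (adjusted p up to 0.0666).

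The same total includes sources of superoxide and peroxide. Of 8 tested NADPH oxidase genes none was higher, 2 were lower and 6 did not pass, with a median of -0.27. Cyba, a membrane subunit of these oxidases, had 4.79 ± 0.818 FPKM in db/db and 8.89 ± 2.10 FPKM in control livers (difference -0.76 ± 0.17; limma adjusted p = 0.00684). Rac2, a GTPase of blood cells, was lower by a difference of -0.43 (limma adjusted p = 0.0336) and did not pass without db/db replicate 1 or 3 or control replicate 1, 2 or 4 (adjusted p up to 0.0828). Of the Kupffer cell markers 2 of 9 were lower as well. T and B cell markers, all too weak to test, summed to 0.363 to 0.851 FPKM in db/db and 1.36 to 3.50 FPKM in control libraries. Neutrophil markers summed to 1.65 to 10.6 FPKM in db/db and 5.57 to 64.2 FPKM in control libraries, with Ly6g and Camp listed at 0. The part of these cells in the differences was not tested.

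The list of peroxide-forming and other oxidases held 9 higher, 2 lower and 7 genes that did not pass of 18 tested, with a median of 0.39. Not all of them give electrons to oxygen, since Suox passes them to cytochrome c and Sqor to ubiquinone. Suox, the sulfite oxidase of mitochondria, had 84.8 ± 12.5 FPKM in db/db and 36.3 ± 1.80 FPKM in control livers, 2.34 times higher (limma adjusted p = 4.09e-05). Maob, a monoamine oxidase of the mitochondrial outer membrane, had 158 ± 10.4 FPKM in db/db and 76.1 ± 5.03 FPKM in control livers (limma adjusted p = 2.85e-05). Aox1 was higher, at 24.2 ± 1.98 FPKM in db/db and 14.3 ± 0.75 FPKM in control livers (limma adjusted p = 0.000521), whereas its relative Aox3 fell by 4.66 on the log2 scale (limma adjusted p = 3.38e-06). The other lower gene was Hao1, the glycolate oxidase of peroxisomes, by a difference of -1.06 (limma adjusted p = 0.00814).

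**Figure D4:**
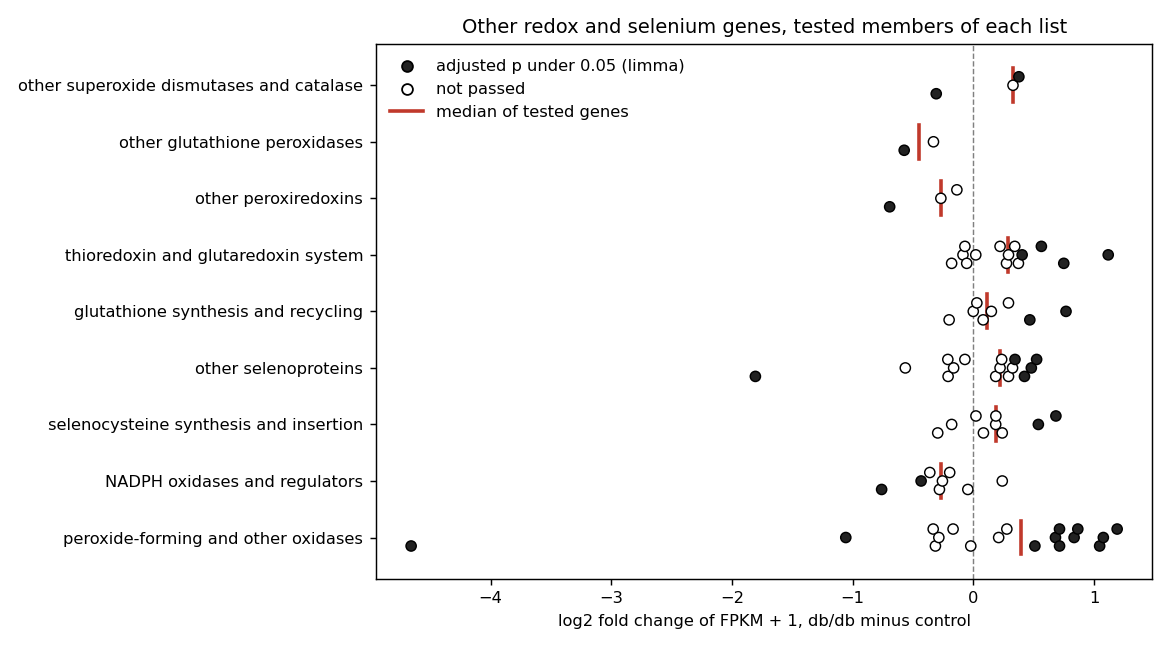
Difference between db/db and control livers on the log2(FPKM + 1) scale for each tested gene of 9 lists of redox and selenium genes other than the 10 described first; filled points have a limma adjusted p under 0.05 and red lines are list medians. Medians run from -0.45 for the other glutathione peroxidases, with 2 tested genes, to 0.39 for the peroxide-forming and other oxidases, with 9 of 18 genes higher in db/db livers.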

How the data were processed

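RNA was measured in 8 liver libraries, 4 db/db and 4 control, grouped by the strain in the labels and numbered within a group for naming only. Per the labels, ribosomal RNA was removed before stranded library construction. The submitters' processing notes state that reads were trimmed with cutadapt 1.9.3, aligned to mouse build mm10 with HISAT2 2.0.4 and quantified with Cufflinks and Cuffdiff, for which versions, annotation and strand settings are given in none of the sources used here. Deposited values are FPKM per gene and library that the authors computed, without pooling of replicates. Since no counts were at hand, no count model was fitted, and neither the study's own test nor its batch adjustment was repeated. The table's length column gives a locus span and was used only for positions. Of its rows 1 held no values, and 6724 genes were at 0 in all libraries.

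The 9863 genes that reached 1 FPKM in 4 or more libraries were compared on log2(FPKM + 1), a pseudocount of 1 that understates changes of weak genes, with limma 3.58.1 in R 4.3.3 (empirical Bayes with a mean-variance trend, 2-sided, no covariate, Benjamini-Hochberg over all tested genes). The fit was tested on simulated data. Ratios within a library were compared by exact permutation over 70 assignments. Alternatives were a pseudocount of 0.1, no filter, a filter of 5 FPKM, median-ratio scaling, quantile normalization, no trend, array weights and leaving out each library.

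The genes described and the lists were chosen with earlier results of these data known. The text names the 10 genes, Lepr, up to 4 tested genes a list by adjusted p, and the 3 genes most correlated with each gene that passed, with further names where a count of 5 or fewer needed them. Selenop, Selenom, Selenot, Sqor, Apob and Retn fell outside this rule and were added after their values were seen, and some cell type markers are named with their lists. Shared 31-base words, positions and coding sequences were taken from GENCODE M21 with biopython 1.88, promoters from RefSeq.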

Additional observations from a re-analysis of the deposited data

How the results depend on the processing

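Prdx3, Prdx6, Selenbp1 and Selenbp2 kept their direction and passed in all 15 alternatives, with adjusted p up to 0.0129, 0.0167, 0.0161 and 7.13e-05. None of these 4 changed direction. Of differences near 0 that never passed, Sod1 was 0.10 with quantile normalization (adjusted p = 0.647, limma), Sod2 was -0.014 with median-ratio scaling, and Gpx1 was -0.0066 with median-ratio scaling, -0.012 without control replicate 2 and 0.24 with quantile normalization. Gpx3 passed with array weights at 0.68 (limma adjusted p = 0.0215) and ranged from 0.35 to 0.65 when 1 library was left out. Gpx4 passed with quantile normalization at 0.60 and with array weights at 0.59, and ranged from 0.33 to 0.61 with 1 library left out. Prdx1 passed with a filter of 5 FPKM at 0.34, with quantile normalization at 0.44 and with array weights at 0.31, and ranged from 0.25 to 0.39 with 1 library left out. The count of genes higher in db/db, 3 of 10, was then 4 with the filter of 5 FPKM, 5 with quantile normalization, 6 with array weights, and 3 to 5 with 1 library left out. The causes were not tested. Gpx3 had no value under the filter of 5 FPKM.

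No paired analysis was possible because the titles of the groups share at most 1 number and no label ties a db/db mouse to a control mouse. Depth is not recorded in FPKM, so the precision of single values rests on the spread of 4 libraries.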
